A study of Schizosaccharomyces pombe with 4 samples.

Results

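Convergent intergenic regions are the stretches of the fission yeast (Schizosaccharomyces pombe) genome where 2 neighbouring genes point toward each other, so that each region lies between 2 gene ends and holds no promoter of its flanking genes. They were taken from the ASM294v3 annotation as the intervals between the coding spans of neighbouring nuclear protein-coding genes that face each other, on chromosome I only below 3.7 Mb. That gave 1173 convergent regions of 4319 intergenic regions, beside 1189 divergent regions between 2 gene starts and 1957 tandem regions between an end and a start. A probe belonged to a region where its centre lay in it, and 2035 of the 42707 genomic probes fell in convergent regions. Of the 1173 regions 927 held a probe and 418 held 1 probe, and 494 had the minimum of 2 usable probes and were tested.

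The cells were wild type carrying Cdk11 tagged with HA, grown to mid-log phase at 32 °C in the rich medium YES and then treated for 10 min with 3% formaldehyde. Chromatin sheared to about 500 bp was precipitated with the monoclonal antibody HA.11 clone 16B12, amplified by ligation-mediated PCR and hybridised with input DNA on 4 2-colour Agilent arrays. All 4 arrays form 1 group. Replicates 1 and 3 are hybridisations of immunoprecipitation 1 and replicates 2 and 4 of immunoprecipitation 2, so n = 2 throughout, with technical duplicates. A precipitation from cells without the tag was not analysed here.

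Each value is log2 of the Cy3 over the Cy5 signal, centred on the median probe of its array. The labels give Cy3 to the immunoprecipitated DNA and Cy5 to the input, while ratios in the authors' deposited table have Cy5 on top, and no array has the dyes swapped. The direction was therefore not settled. A negative value is a depletion of Cdk11-HA if Cy3 holds the precipitated DNA and an enrichment if Cy5 holds it. Results are given by channel for this reason. Fragments of about 500 bp are longer than most convergent regions, whose median length was 387 bp, so a probe also reports on DNA reaching into the flanking genes.

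Cdk11 is a cyclin-dependent kinase that works with an L-type cyclin and, in fission yeast, phosphorylates subunits of Mediator, the coactivator that links transcription factors to RNA polymerase II. Between convergent genes transcription ends from both sides: the polymerase reads past a polyadenylation signal, the transcript is cleaved, and the polymerase is released, often close to others arriving from the opposite gene. In fission yeast transcripts of convergent pairs can overlap, and cohesin, the ring complex that holds sister chromatids together, accumulates between them.

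Convergent regions were short and rich in A and T. Their median length of 387 bp compared with 1030 bp for divergent and 743 bp for tandem regions, and their median GC content was 28.7%, against 31.7% and 30.7%. The annotated transcripts of the flanking genes overlapped in 761 of them (64.9%), against 24 divergent regions (2.02%) and 126 tandem regions (6.44%). A non-coding gene was annotated in 473 convergent regions (40.3%), against 938 divergent (78.9%) and 1646 tandem regions (84.1%). Small RNA genes lay in 29.

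The canonical polyadenylation signal AATAAA was searched on both strands as a sequence shared by gene ends. In the 200 bases after the stop codon, 735 of 2346 convergent genes (31.3%) held it on the gene's own strand, against 470 of 1957 tandem gene ends (24.0%) and 1414 of all 5112 nuclear coding genes (27.7%). Where a region is shorter than 200 bp these windows reach into the facing gene. The 200 bases before the start codon held it at 22.5% of all genes. On the opposite strand the share after the stop codon was 46.7% for convergent genes and 47.4% for all genes. Over whole convergent regions, 499 held the motif on both strands, 470 on 1 strand and 204 on neither, with median lengths of 574, 330.5 and 198.5 bp.

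The first copy after each stop codon is printed for the 6 regions with the highest relative Cy5 signal and for the region called in the opposite direction, because these are the gene ends the results below turn on. Each line gives 30 bases of ASM294v3 from 5′ to 3′ on the strand of the named gene, with the motif in capitals at its first copy. The order follows the regions described below, from the Cy5 side to the Cy3 side.
SPCC13B11.02C, facing adh1 (III:1592648-1592677, minus strand): tggaaaaaaggaAATAAAagaacaagactt
sec5, facing htb1 (III:1413433-1413462, minus strand): aataataataatAATAAAtccattaataaa
SPAC1705.02, facing ecm33 (I:1569413-1569442, plus strand): tttgataaaaacAATAAAatctatatttct
ecm33, facing SPAC1705.02 (I:1569571-1569600, minus strand): gcggtagttagtAATAAAataatttgattg
ape2, facing pvg3 (II:2416489-2416518, plus strand): tttcaatcatatAATAAAacgctaatataa
mug165, facing rps2202 (I:1511554-1511583, plus strand): tttaaagtaaaaAATAAAtttccaattacc
rps2202, facing mug165 (I:1511580-1511609, minus strand): aatggagttatcAATAAAgatgtaatggta
sgd1, facing shm1 (I:3069121-3069150, plus strand): gttacggttataAATAAAaaggttttggtt
SPBPB21E7.10, facing SPBPB21E7.11 (II:62049-62078, plus strand): ggaattgatgtaAATAAAtgttttctgagt
SPBPB21E7.11, facing SPBPB21E7.10 (II:61888-61917, minus strand): atttacaaaatcAATAAAataggaattgca

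The ends of adh1, htb1, shm1 and pvg3 had no AATAAA on their own strand anywhere in their regions. For mug165 and rps2202 the printed windows overlap on opposite strands. The printed copy began 79 to 200 bp after the stop codon at sgd1, SPAC1705.02, sec5 and rps2202. It was farther out at SPBPB21E7.10 (206 bp), mug165 (288 bp), ape2 (346 bp), SPBPB21E7.11 (351 bp), ecm33 (407 bp) and SPCC13B11.02C (737 bp). Use of these copies as end signals of the named genes was not tested. Regions without the motif on either strand had a median value of -0.15 over the 31 tested. The median was -0.26 over 158 regions with it on 1 strand and -0.17 over 305 with it on both. Tested regions of the 3 classes differed in median length, at 473, 584 and 771 bp, and the medians over both immunoprecipitations have no order along the classes. The medians were -0.25, -0.39 and -0.29 in immunoprecipitation 1. In immunoprecipitation 2 they rose along the classes, at -0.31, -0.25 and -0.08. By the limma test described below, 5 of 31, 16 of 158 and 12 of 305 regions were called toward Cy5, against 2.29% of all intergenic regions. That share fell along the classes, and the trend was not tested.

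As a class, convergent regions lay on the Cy5 side of the array median on every array. The median over the 494 tested regions was -0.40, -0.26, -0.23 and -0.08 on replicates 1 to 4. Divergent regions, over 944 tested, had medians of 0.04, 0.12, 0.18 and 0.24. Tandem regions, over 1440, had -0.06, 0.02, 0.01 and 0.13, and 3848 coding spans stayed between -0.06 and -0.03. The convergent median was below those of the other classes on each array, and its 4 values overlapped with none of the divergent values.

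The convergent median minus the divergent median was -0.38 in immunoprecipitation 1 and -0.31 in immunoprecipitation 2, a mean difference of -0.35 ± 0.05 (SD, n = 2). Against tandem regions it was -0.24 ± 0.07, and against coding spans -0.18 ± 0.15 (SD, n = 2 each), where the values of -0.28 and -0.07 were far apart. With 2 immunoprecipitations an exact sign-flip test cannot give a p below 0.5, so these differences are stated without a test.

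Spot brightness moved with the classes. Convergent probes were brighter in Cy5 than other intergenic probes, with median signals of 2749, 3137, 3275 and 4156 on replicates 1 to 4, against 2025, 2543, 2529 and 3464 for divergent probes. In Cy3 the convergent medians were the lower ones, at 4246, 4031, 5274 and 5031, against 4453, 4181, 5386 and 5159. Poor spots took 19.9, 7.52, 8.89 and 1.72% of convergent probes, against 29.3, 11, 17.1 and 2.43% of divergent probes. After a loess fit of the ratio on brightness within each array, all intergenic classes moved toward Cy5, the median over all tested regions going to -0.15 with the fit against 0.04 without it. The divergent and tandem medians were then -0.07 and -0.16 over both immunoprecipitations. The convergent median was -0.48, -0.34, -0.32 and -0.21 on replicates 1 to 4, and its mean differences were -0.26 ± 0.02 from divergent regions, -0.17 ± 0.02 from tandem regions and -0.37 ± 0.14 from coding spans (SD, n = 2).

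**Figure D1:**
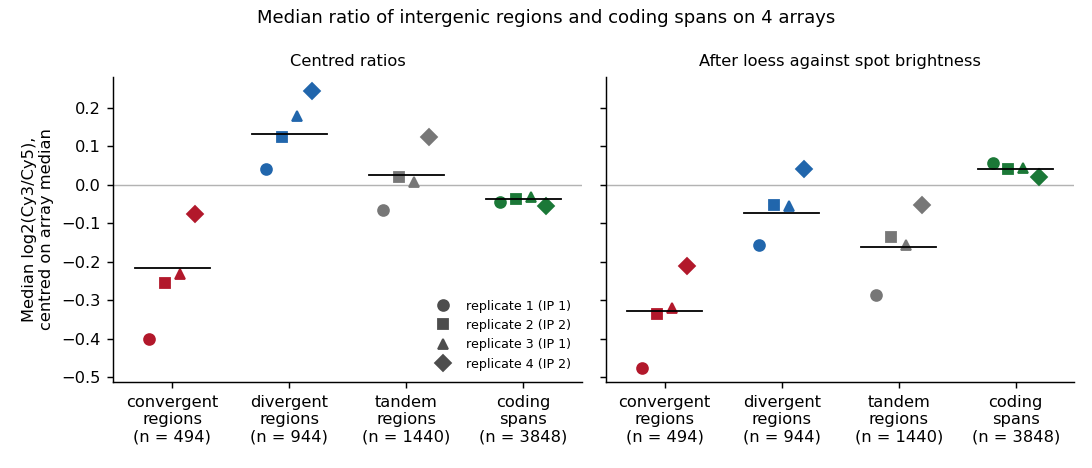
Median log2(Cy3/Cy5) of convergent, divergent and tandem regions and of coding spans on each of the 4 arrays (symbols), with the mean of the 2 immunoprecipitations (IP, line), for centred ratios on the left and after loess on the right. The convergent medians, from -0.40 to -0.08 before loess, lie below those of the other 3 classes on every array in both panels.

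The lower values set in around the gene end. Within genes that face a convergent neighbour, probes 1000 to 500 bp before the stop codon had a median of -0.02 over 3130 probes. In the last 250 bp before the stop codon it was -0.11, and in the first 100 bp of the region -0.20 over 700 probes. Farther out it was -0.19 from 100 to 200 bp, -0.21 from 200 to 400 bp and -0.15 over the 255 probes from 400 to 1000 bp. The immunoprecipitations differed there: beyond 100 bp the first had -0.32, -0.30 and -0.32, and the second -0.08, -0.13 and -0.05, close to its -0.09 in the last 250 bp of the gene. Lower values in the first 100 bp were seen in both, at -0.20 and -0.15.

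Ends of tandem genes had a step in immunoprecipitation 1 only. Their median before loess was -0.03 in the last 250 bp of the coding span and -0.04 in the first 100 bp beyond it, and it was 0.07 from 400 to 1000 bp. In immunoprecipitation 1 it was -0.12 in the first 100 bp, against -0.01 in the last 250 bp of the coding span, and in immunoprecipitation 2 it was -0.01, against -0.05. Convergent ends in immunoprecipitation 1 were at -0.20, against -0.13, in the same bins, a step no larger than that of tandem ends. At the starts of divergent genes the medians ran the other way before loess, at 0.06 in the first 250 bp of the coding span and 0.18 from 100 to 200 bp before the start codon. After loess convergent ends were at -0.36 from 100 to 200 bp, tandem ends at -0.20 and divergent starts at -0.02, each below the value of its class 500 to 250 bp inside the gene (0.04, 0.07 and 0.07). When array coordinates were matched to the reference by brightness and GC content, the best-fitting shift of a window reached 220 bp. Whether probes are misplaced by such a shift was not tested, so the position of the step is taken as no finer than that.

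**Figure D2:**
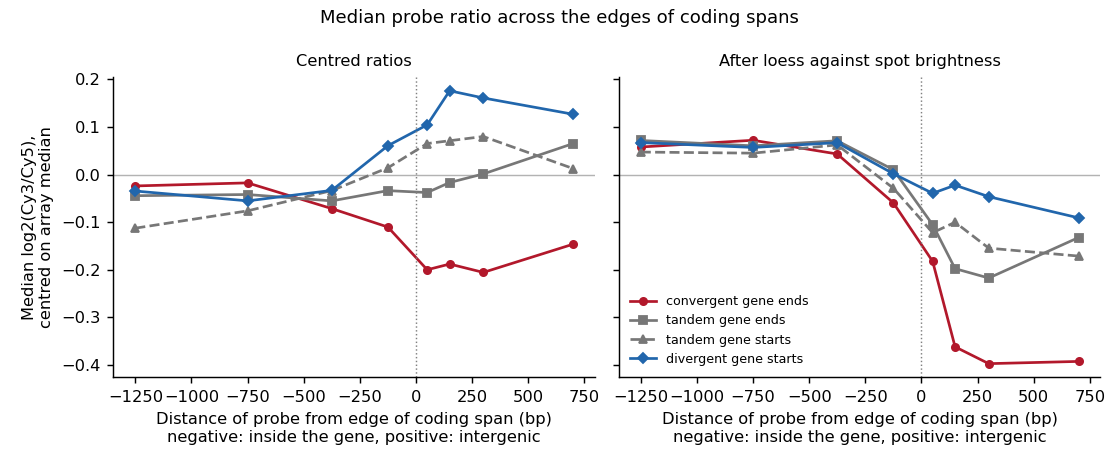
Median log2(Cy3/Cy5) of probes by distance in bp from the edge of a coding span (negative inside the gene, positive between genes), mean of both immunoprecipitations, before loess on the left and after it on the right. Convergent ends drop to -0.20 in the first 100 bp outside the gene, while divergent starts reach 0.18 before loess. After loess all 4 kinds of edge have lower values outside the gene than 500 bp inside it.

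Single convergent probes and regions were then called with limma, at a Benjamini-Hochberg adjusted p below 0.05 over all genomic probes or all intergenic regions. The probe fit gave every probe the same SD of 0.565, so a probe call is a cutoff on the mean ratio. It takes no account of how far the 2 immunoprecipitations differ at that probe. Of 1944 convergent probes tested, 101 (5.20%) were called higher in Cy5, against a background of 2.31% of 41237 probes, and 1 was called higher in Cy3, against a background of 0.226%. Of the 494 regions, 33 (6.68%) were called higher in Cy5, against a background of 2.29% of 2878 intergenic regions. In the Cy3 direction 1 region was called, against a background of 0.208%. Of the 66 regions called toward Cy5 in all, 33 were convergent, 5 divergent and 28 tandem.

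Less strict readings gave the same direction. On all 4 arrays 137 convergent regions (27.7%) were on the Cy5 side, against 11.3% of all regions, and 27 (5.47%) were on the Cy3 side, against 13.4%. At least 1.5-fold toward Cy5 in both immunoprecipitations were 63 regions (12.8%), against 4.27%, and at least 1.5-fold toward Cy3 were 2, against 1.15%. Across the 494 regions the values of both immunoprecipitations correlated at r = 0.53, compared with 0.25 over divergent and 0.35 over tandem regions. Regions on 1 array share its hybridisation and depth, so this is a description.

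The number of calls depended on the fit. Leaving out replicate 3 left 9 of 406 regions called toward Cy5, against 0.537% of all regions tested. Leaving out replicate 4 left 13 of 467, against 1.02%, while leaving out replicate 1 gave 53 of 474, against 3.81%. After loess 14 were called, against 0.764% of all regions. At an unadjusted limma p below 0.05, 188 of the 494 were toward Cy5 after loess, against 20.0% of all regions. As fitted that number was 115, against 8.58%. With regions bounded by annotated transcript ends in place of coding spans 96 regions were left to test and none was called by limma. Of the 96, 23 were toward Cy5 at an unadjusted limma p below 0.05, against 5.42% of all 1494 regions tested in that setting.

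**Figure D3:**
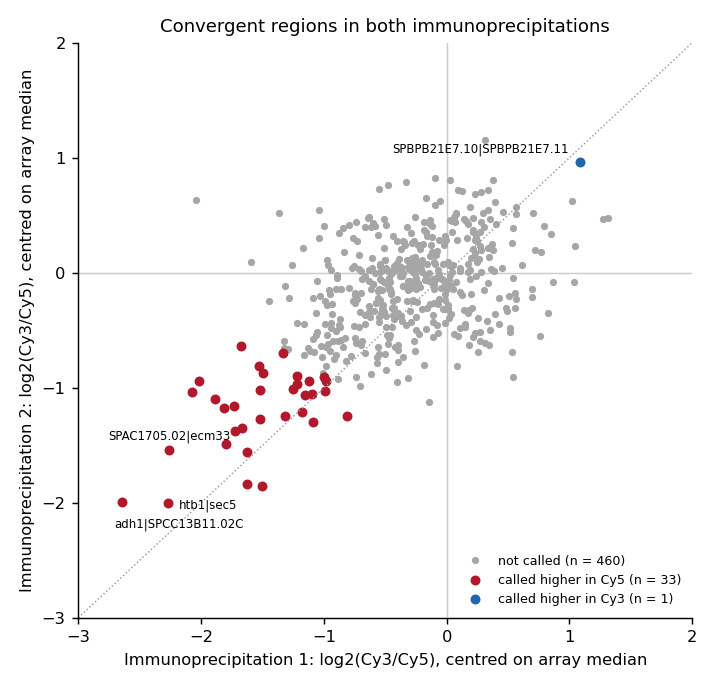
Value of each of the 494 convergent regions in immunoprecipitation 1 (horizontal) and immunoprecipitation 2 (vertical), both as centred log2(Cy3/Cy5), with the dotted line marking equal values. The 33 regions called higher in Cy5 form the lower left tail, led by adh1|SPCC13B11.02C, and 1 region was called higher in Cy3.

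The region most toward Cy5 lay at the end of adh1 (SPCC13B11.01), the alcohol dehydrogenase of fermentation, facing the uncharacterized SPCC13B11.02C. It spans 990 bp at III:1592412-1593401 and holds the annotated antisense gene adh1AS. Its 4 probes averaged -2.86, -2.22, -2.44 and -1.77 on replicates 1 to 4, a mean of -2.32 ± 0.46 (SD, n = 2; limma adjusted p = 0.000684). All 4 probes were on the Cy5 side on every array, with means of -2.44, -2.55, -2.65 and -1.64 in order from the adh1 stop codon. The coding span of adh1 itself was at -2.48 over 5 probes, while the 1 probe of SPCC13B11.02C was at 1.15.

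Next was the 772 bp region III:1412865-1413636 between htb1 (SPCC622.09), which encodes histone H2B, and sec5 (SPCC622.10C), a subunit of the exocyst that tethers secretory vesicles. Its 2 probes averaged -2.46, -2.23, -2.08 and -1.77, with a mean of -2.13 ± 0.19 (SD, n = 2; limma adjusted p = 0.000684). The 4 arrays lay close together. The coding span of htb1 was at -1.68 and that of sec5 at -0.22, so the region was lower than both.

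The 691 bp between SPAC1705.02 and ecm33 (SPAC1705.03C), a cell surface protein gene, at I:1569304-1569994, averaged -2.38, -1.68, -2.14 and -1.40 (mean -1.90 ± 0.51, SD, n = 2; limma adjusted p = 0.00249). Its 3 probes were graded toward ecm33, at -0.71, -2.24 and -2.75, the last 117 bp from the ecm33 stop codon. The coding spans showed the same asymmetry, with -0.33 at SPAC1705.02 and -2.19 at ecm33.

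Other regions in the leading 12 also had 1 flanking coding span far toward Cy5. The region I:3069055-3069613 between sgd1, a ribosome biogenesis gene, and shm1, which encodes serine hydroxymethyltransferase, averaged -2.06, -1.48, -1.53 and -1.50, with shm1 at -1.39 and sgd1 at 0.09. Between bbl1 and ptr2, a peptide transporter gene (II:3405151-3405835), the values were -1.06, -1.05, -2.38 and -1.71, with ptr2 at -1.84 and bbl1 at -0.25. Between pfl8 and pdc101, which encodes a pyruvate decarboxylase (I:101169-101835), they were -2.24, -0.77, -1.70 and -1.13, with 2 poor spots left out, and pdc101 at -2.18 and pfl8 at -0.52. Every array was on the Cy5 side at these 3 regions, and in each pair the span of 1 gene, shm1, ptr2 or pdc101, was called toward Cy5.

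Between taf9, a subunit of TFIID and SAGA, and mcp60, the mitochondrial chaperonin gene, 5 probes spread over 1223 bp (I:338884-340106) averaged -1.91, -1.57, -1.42 and -1.13 on replicates 1 to 4. This region holds the small nucleolar RNA gene sno52. The probe nearest to taf9 was at -0.93 and did not pass (limma adjusted p = 0.248), while the other 4 passed, with means from -1.97 to -1.33. The span of mcp60 was at -1.83 and that of taf9 at -0.05.

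Ribosomal protein genes flanked 3 of the 12. The 518 bp between mug165 and rps2202, for ribosomal protein uS8 (I:1511279-1511796), averaged -1.44, -1.83, -1.56 and -1.87 on replicates 1 to 4. The 404 bp between eft202, for translation elongation factor 2, and rpl35A01 (III:539855-540258) averaged -1.86, -1.16, -2.29 and -0.91. Between rps001 and rpl2701, both for ribosomal proteins (II:2779857-2780198), the values were -1.61, -1.63, -2.02 and -0.72. All passed, with limma adjusted p of 0.00302, 0.00863 and 0.00693, and every array was on the Cy5 side. The 1 probe in rps2202 was at -2.25 and the span of rpl35A01 at -0.89, while rps001 and rpl2701, at -0.51 and -0.47, did not pass.

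In the last 2 of the leading 12 the flanking spans were less extreme or held too few probes to test. Between ape2, an aminopeptidase gene, and pvg3 (II:2416156-2417165) the values were -2.10, -1.94, -1.16 and -1.73 on replicates 1 to 4, with ape2 at -0.42, which did not pass, and pvg3 at -0.73 (limma adjusted p = 0.032). That region carries 3 annotated non-coding genes, SPNCRNA.1511, SPNCRNA.5645 and SPNCRNA.5646. Between pof14, an F-box protein gene, and byr3, for a zinc finger protein annotated as a translational activator (I:2247082-2247942), they were -1.91, -1.84, -1.34 and -1.27, with 1 byr3 probe at -1.92 and pof14 at 0.21.

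All 12 passed, with limma adjusted p between 0.000684 and 0.00863. After loess 9 of them still passed, each at an adjusted p of 0.0471. The 3 that did not were adh1|SPCC13B11.02C at -1.05, htb1|sec5 at -1.03 and eft202|rpl35A01 at -0.998, with limma adjusted p of 0.0553, 0.0607 and 0.0749, all still on the Cy5 side. With only probes centred at least 100 bp from both coding spans, pfl8|pdc101 was at -1.11 and did not pass (limma adjusted p = 0.0894). The regions mug165|rps2202, sgd1|shm1, eft202|rpl35A01 and rps001|rpl2701 then had fewer than 2 probes and were not tested. The rest of the 12 passed, with limma adjusted p from 0.00874 to 0.0348.

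On the Cy3 side 1 region passed. The 400 bp between SPBPB21E7.10 and SPBPB21E7.11, both uncharacterized, at II:61856-62255, averaged 1.16, 1.35, 1.00 and 0.58 on replicates 1 to 4 (mean 1.02 ± 0.08, SD, n = 2; limma adjusted p = 0.0339). Neither of its 2 probes passed alone, and the call was lost in 10 of 14 other settings. The next 5 in order among regions on the Cy3 side on all 4 arrays did not pass: dal51|SPCC417.11C at 0.90, dhx29|SPBC15C4.06C at 0.73, csc3|bcp1 at 0.61, nnr2|SPCC61.04C at 0.60 and bzz1|SPBC12C2.04 at 0.59, with limma adjusted p from 0.0965 to 0.25.

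Regions beside genes known for high expression in growing cells had lower values, a difference that was not tested. Of the 494, 66 had a flanking gene on 1 of 5 lists (ribosomal proteins, glycolysis and fermentation, translation factors, core histones, chaperones), and their median was -0.91, -0.72, -0.77 and -0.52 on replicates 1 to 4. The 428 with no listed neighbour had medians of -0.33, -0.21, -0.12 and -0.02, still on the Cy5 side on each array. Called toward Cy5 were 17 of 66 (25.8%) and 16 of 428 (3.74%), against 2.29% of all intergenic regions. The lists were chosen with earlier results of these data known, so this contrast is a description. Divergent regions with a listed neighbour had a median of 0.03 over 80 regions and tandem ones -0.27 over 138.

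By list, 12 of 39 regions beside a ribosomal protein gene were called toward Cy5 (median -0.82), as were 3 of 6 beside a glycolysis or fermentation gene (median -1.01). Beside core histone genes 1 of 5 was called (median -0.52), beside translation factor genes 1 of 9 (median -0.39), and beside chaperone genes 1 of 8 (median -0.37). Both regions with listed genes on both sides were called, at a median of -1.52: eft202|rpl35A01 and rps001|rpl2701. Among the called regions beside ribosomal protein genes were rpl3201|las1 at -1.39, rps1002|mis15 at -1.27 and rpl3001, facing wis4, at -1.19. The median over all 2878 intergenic regions was 0.04, and 2.29% of them were called toward Cy5.

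The 33 called regions often lay beside a coding span on the same side. At 19 of them (57.6%) a flanking coding span was itself called higher in Cy5, against 69 of all 494 (14.0%), where 4.57% of 3848 coding spans had that call and 0.546% the opposite one. A listed neighbour flanked 17 (51.5%), against 66 of 494 (13.4%). Their length and composition were close to those of all tested regions, with medians of 624 bp and 30.2% GC against 665.5 bp and 29.7%. After loess 32 of the 33 were still on the Cy5 side. The exception was rps1002|mis15, at 0.22.

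Over 356 convergent regions with a value for both flanking spans, region and mean flank correlated at r = 0.50 (Spearman's rho 0.40). Over 748 divergent regions r was 0.12 and over 1142 tandem regions 0.33. These points share arrays and chromatin fragments that span both features, so they are a description. Where the mean flank was below -0.5, the convergent median was -0.72 over 38 regions, against -0.06 over 46 divergent regions with such flanks. Where it was between 0 and 0.25 the convergent median was still -0.10 over 91 regions, and above 0.25 it was 0.01 over 18.

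The difference of convergent regions from their own flanking genes depended on the brightness correction. Before loess the median of region minus mean flank was -0.18 in immunoprecipitation 1 and 0.01 in immunoprecipitation 2 over 464 regions, so its sign was not shared. For divergent regions both values were above 0, at 0.15 and 0.28, and for tandem regions they were 0.04 and 0.16. After loess the medians over both immunoprecipitations were -0.35 for convergent, -0.08 for divergent and -0.19 for tandem regions, so that the signs of the other classes turned, and in the deposited values they were -0.37, -0.09 and -0.21. By limma 6 convergent regions (1.29%) passed below their flanks, against a background of 0.514% of 2723 regions, and none passed above, with the same background of 0.514%. At an unadjusted p below 0.05, 49 convergent regions lay below their flanks, against 4.66% of all regions, and 14 above, against 10.1% of all regions.

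The largest such differences were at adh1|SPCC13B11.02C (-1.66), cti1|SPCC1739.08C (-1.32), not2|mdj1 (-1.29) and tcg1|egt2 (-1.27), with limma adjusted p of 0.0189, 0.0435, 0.036 and 0.0435. The first is a difference from the mean of adh1, at -2.48, and the single SPCC13B11.02C probe, at 1.15, and the region itself, at -2.32, was not below adh1. The region between not2, of the CCR4-Not deadenylase complex, and mdj1, a mitochondrial J-domain protein gene (III:442697-443169), averaged -2.09, -1.14, -0.41 and -0.87 on replicates 1 to 4, while its flanking spans were at 0.24 and 0.08. Without replicate 1 its difference from the flanks was -0.75 and its own value -0.71, and neither passed. Between tcg1, for a telomeric single-strand binding protein, and egt2 (II:216497-217000) the values were -1.15, -0.64, -1.50 and -0.67, with flanks at 0.21 and 0.34. Both regions were on the Cy5 side on all 4 arrays, while the mean values of their neighbours were on the Cy3 side. The other 2 of the 6 were htb1|sec5 (-1.19) and ape2|pvg3 (-1.16), each with an adjusted p of 0.0435 by limma.

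The cti1|SPCC1739.08C region (III:2041686-2043281) was itself at -0.27 and did not pass (limma adjusted p = 0.666). That value rested on replicate 1. Its usable probes averaged -1.57 there, against -0.09, 0.08 and 0.11 on replicates 2 to 4. Of its 6 probes, those starting at III:2041687 and III:2042633 had no usable spot on replicate 1. On replicates 2 to 4 the former read 0.62, 0.49 and 0.96 and the latter -1.24, 0.93 and 0.09. The 1 probe in cti1, an exosome cofactor gene, was at 1.46 and the span of SPCC1739.08C at 0.65. Most of the difference of -1.32 thus lay in these flanks. No region passed against its flanks when replicate 1, 3 or 4 was left out, and 4 did without replicate 2. After loess 109 passed below their flanks (23.5%), against 10.6% of all regions, and 3 of the 6 were among them. The calls of not2|mdj1 (-0.53, limma adjusted p = 0.114) and tcg1|egt2 (-0.45, limma adjusted p = 0.195) were lost then.

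By length, the median was -0.24 over 194 regions of 300 to under 600 bp and -0.19 over 176 of 600 to under 1000 bp. It was -0.22 over 88 of 1000 to under 2000 bp. Called toward Cy5 were 14 (7.22%), 13 (7.39%) and 4 (4.55%), against 2.29% of all intergenic regions. Over 27 regions of 2000 bp or more the median was -0.09, with 1 called (3.7%). Of the 425 regions under 300 bp 9 could be tested, and their median of -0.07 came with array medians from -0.82 to 0.18. Divergent and tandem regions of 300 bp or more had medians between 0.02 and 0.18 in every length class before loess, and between -0.18 and 0.03 after it. Convergent regions of these lengths had -0.36 to -0.15 after loess.

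**Figure D4:**
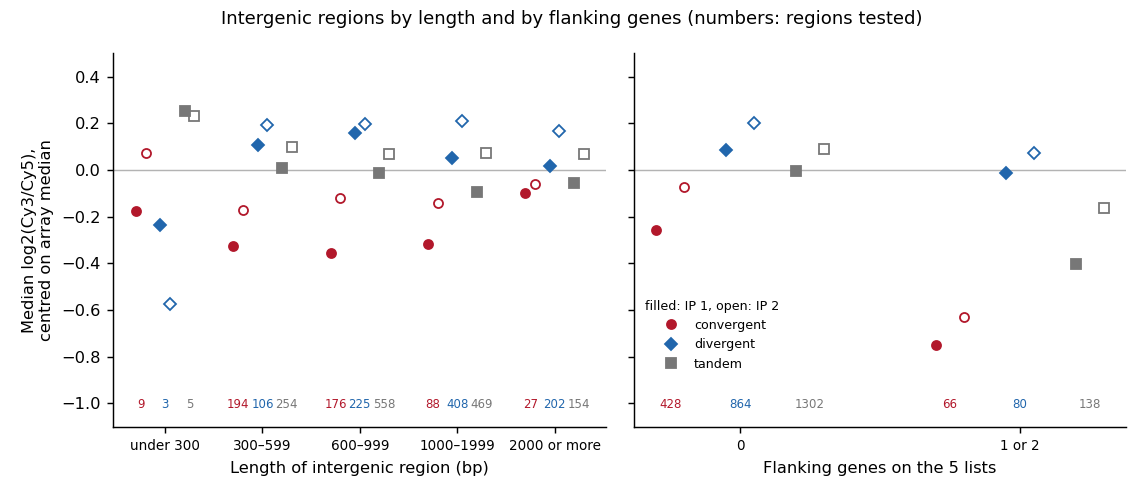
Median log2(Cy3/Cy5) in immunoprecipitation (IP) 1 (filled) and 2 (open) for convergent, divergent and tandem regions by length (left) and by whether a flanking gene is on the 5 lists (right), with the number of regions tested along the bottom. Convergent regions lie below the other classes from 300 to under 2000 bp in both immunoprecipitations, and farthest from 0 beside listed genes, at -0.75 and -0.63.

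None of the 4 longest convergent regions passed. At SPAC977.17|SPAPJ695.02, near the left end of chromosome I, 17 probes over 6758 bp (I:68940-75697) averaged 0.08, -0.38, -0.07 and -0.01 on replicates 1 to 4. At dga1|wtf4, between an acyltransferase gene of fat storage and a meiotic driver of the wtf family, 7 probes in 4288 bp (III:216911-221198) averaged -0.55, 0.32, 0.26 and 0.42. At wtf11|SPCC622.01C (3829 bp, III:1400477-1404305) they were -0.0018, 0.33, 0.33 and 0.11. The ptc2|meu10 region (3610 bp, III:1864870-1868479), beside a protein phosphatase gene, had -0.01, 0.14, 0.12 and -0.21. All but wtf11|SPCC622.01C had arrays clearly on both sides of 0. At these 4 regions 6, 1, 10 and 6 poor spots were left out, in the order given. Most of those at wtf11|SPCC622.01C were on replicate 1.

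Regions were also split by what is annotated in them. Regions whose annotated transcripts overlap had a median of -0.19 over 225, and those whose transcripts stay apart -0.20 over 269. Of these 11 (4.89%) and 22 (8.18%) were called toward Cy5, against 2.29% of all intergenic regions. With a non-coding gene the median was -0.21 over 305 regions and without one -0.18 over 189. The 28 tested regions with a small RNA gene had a median of -0.40, with array medians of -0.66, -0.48, -0.55 and -0.20, and 4 of them were called. On chromosomes I, II and III the medians were -0.19, -0.21 and -0.18, with 16 of 161, 13 of 203 and 4 of 130 regions called toward Cy5.

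**Figure D5:**
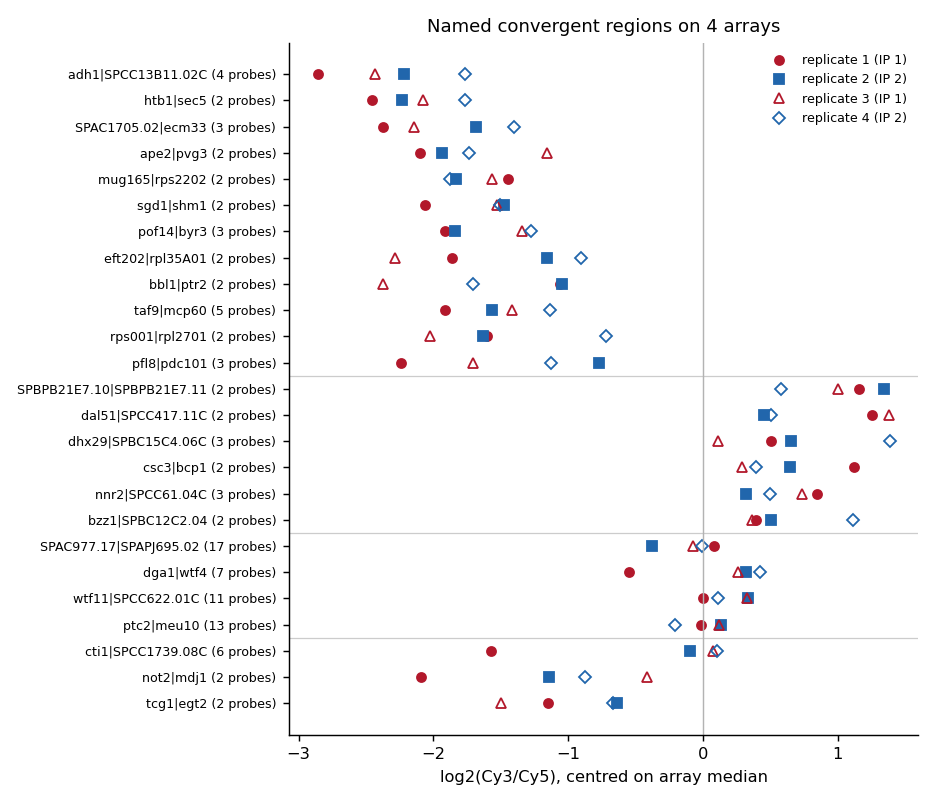
Centred log2(Cy3/Cy5) of the named convergent regions on each of the 4 arrays (filled symbols replicates 1 and 2, open symbols replicates 3 and 4; red immunoprecipitation (IP) 1, blue immunoprecipitation 2). From top to bottom are, among regions on 1 side on all 4 arrays, the 12 most toward Cy5 and the 6 most toward Cy3, then the 4 longest, and the regions lowest against their flanks apart from adh1|SPCC13B11.02C, which is in the top group; all 12 at the top are below 0 on every array, while cti1|SPCC1739.08C has 1 array at -1.57 and 3 near 0.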

How the data were processed

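Per the file headers, the deposited scanner files of the 4 arrays hold spot intensity values (mean foreground, median local background) in Cy5 and Cy3, the percent of a spot's pixels above background or saturated, and a squared pixel correlation as a fraction. The authors' deposited table holds log2 ratios and was used, sign turned, as an alternative. Its making is not described in the sources used here. No build is named. In windows of 100000 bp, probe brightness matched the GC content of ASM294v3 in 107 of 107 windows used, and in 0 of 19 on the rest of chromosome I, where a match is r of at least 0.2 unshifted and a best shift of at most 250 bp. On a finer scale the best shift was within 20 bp in 29 of the 107.

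The design had assumed Agilent's own output. Foreground signals were used as given, without background subtraction, and poor spots were left out unless marked for saturation only, with a squared pixel correlation above 0.3. Probes (median 60 bases, spaced 264.5 bp) were averaged over the 2 arrays of an immunoprecipitation, then over a region with at least 2 probes. limma 3.58.1 in R 4.3.3 (lmFit, eBayes, two-sided against 0, Benjamini-Hochberg) was fitted to all probes, intergenic regions, or regions minus the mean of both flanking spans. The number of immunoprecipitations, 2, limits the precision. The fit was tested on simulated data. Alternatives changed the scaling, background correction, filters, arrays, error model and region boundaries.

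Regions, gene lists and the rule for named regions (12 per direction among those passing on 4 arrays, else up to 6; 4 longest; 4 per direction against flanks) were chosen with earlier results of these data known.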

Additional observations from a re-analysis of the deposited data

Results flagged for a closer look

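On single arrays 3 named convergent regions had a value standing far from the other 3, by Dixon's ratio of gap to range, which chance exceeds in about 1 of 20 groups of 4. At sgd1|shm1 replicate 1 read -2.06, against -1.53 to -1.48 on the others. At dga1|wtf4 replicate 1 read -0.55, against 0.26 to 0.42. At cti1|SPCC1739.08C replicate 1 read -1.57, against -0.09 to 0.11. All 3 were the same array, on which 19.9% of convergent probes were left out as poor. At sgd1|shm1, however, 0 spots were left out, and at dga1|wtf4 the 1 left out was on replicate 3. At cti1|SPCC1739.08C 3 were left out, including those of the probes starting at III:2041687 and III:2042633 on replicate 1. Why replicate 1 stood apart was not tested.

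Convergent and divergent regions lay on opposite sides of the array median on all 4 arrays, with a mean difference of medians of -0.39 over the arrays. After loess the divergent medians were -0.16, -0.05, -0.05 and 0.04, so that only replicate 4 then had the classes on opposite sides. This difference between the classes was not tested.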

How the results depend on the processing

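No paired analysis was possible because all arrays form 1 group. Under all 13 other settings of the median over convergent regions it stayed below 0, between -0.34 with mode centring and -0.10 with annotated gene ends, and its differences from divergent and tandem regions stayed below 0 too. The difference from divergent regions was -0.33 as fitted, -0.24 after loess, -0.23 in the deposited values, -0.49 after normexp, -0.22 after loess and GC correction, -0.43 with probes well above background and -0.28 with annotated gene ends. The difference from tandem regions was -0.23, and under those settings, without the probe filter, -0.15, -0.15, -0.35, -0.14 and -0.17. With a listed neighbour the median was -0.67, and it was -0.56 after loess, -0.55 in the deposited values, -0.86 after normexp, -0.81 with mode centring and -0.49 after loess and GC correction. Without one it was -0.15, and it was -0.30 after loess, -0.29 in the deposited values and -0.29 with mode centring. Leaving out 1 array gave -0.27 to -0.17 for the median, -0.37 to -0.34 and -0.25 to -0.22 for the differences, and -0.70 to -0.62 and -0.22 to -0.12 with and without listed neighbours.

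Counts of calls moved more, and the cause was not tested. Percentages in brackets are the shares of all features called in the same direction under that setting. Regions called toward Cy5 numbered 33 (2.29%), and 14 (0.764%) after loess, 101 (8.93%) in the deposited values, 0 (0%) after normexp, 13 (0.73%) with mode centring, 85 (6.85%) after loess and GC correction, 81 (5.35%) with poor spots kept, 61 (4.39%) with the immunoprecipitation as a random block, 0 (0.0669%) with annotated gene ends and 14 (4.44%) without non-coding genes. After seeing the data, 2 settings were added: 13 (0.799%) were called with probes averaged first and 8 (0.879%) with probes at least 100 bp from both coding spans. Leaving out 1 array gave 9 (0.537%) to 53 (3.81%). Of the 33, 11 remained after loess and 28 in the deposited values. Regions called toward Cy3 numbered 1 (0.208%), and 0 after loess, normexp, mode centring, annotated gene ends and both added settings (0% in each). They also numbered 0 with the filter on background (0.269%) and with at least 1 probe (0.13%). Counts were 3 (1.71%) with poor spots kept, 2 (0.863%) with the random block, 2 (1.21%) without non-coding genes and 0 (0%) to 4 (1.32%) without 1 array. After normexp 103 convergent regions were toward Cy5 (7.75%) and 18 toward Cy3 (6.91%) at an unadjusted p below 0.05 in limma.

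Probes called toward Cy5 numbered 101 (2.31%), and 365 (7.29%) after loess, 391 (7.81%) in the deposited values and 55 (1.02%) after normexp. They numbered 305 (6.67%) after loess and GC correction, 165 (4.76%) with the random block and 32 (0.767%) to 87 (2.0%) without 1 array. With annotated gene ends 34 of 503 convergent probes were called, or 6.76%. At 100 bp or more 67 of 1241 were called, or 5.4%, compared with 5.2% as fitted. The share of all probes was 2.31% in each of these 3 settings. Toward Cy3 the 1 probe (0.226%) became 25 (4.09%) after loess, 26 (4.49%) in the deposited values and 30 (3.63%) after loess and GC correction. It became 2 (0.416%) with the filter on background, 2 (0.398%) with poor spots kept and 11 (1.08%) with the random block. With annotated gene ends it became 0 (0.226%), and without 1 array 0 (0.0028%) to 2 (0.112%). Against flanking spans the 6 toward Cy5 (0.514%) became 109 (10.6%) after loess, 104 (10.1%) in the deposited values and 11 (0.734%) after normexp. They became 11 (0.845%) with mode centring, 76 (7.71%) after loess and GC correction and 10 (1.67%) with the filter on background. Counts were 10 (0.866%) with the random block, 0 (0%) with at least 1 probe, 2 (0.642%) without non-coding genes and 0 (0%) to 4 (0.332%) without 1 array. The 0 toward Cy3 (0.514%) became 1 (1.1%) with mode centring and 6 (1.91%) after loess and GC correction. It became 1 each with annotated gene ends (5.75%), at least 3 probes (2.64%) and 100 bp or more (0.782%).

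Named regions kept direction and side of the threshold in 342 comparisons, lost the call in 69, gained it in 9 and changed sign in 16. The sign changes, none of a value that had passed, were at bzz1|SPBC12C2.04 (0.59 as fitted, -0.018 after loess, -0.10 in the deposited values), SPAC977.17|SPAPJ695.02 (0.048 with the filter on background, 0.058 with poor spots kept), dga1|wtf4 (-0.064 with mode centring, and -0.088 to 0.33 over the arrays left out, lowest without replicate 3), cti1|SPCC1739.08C (0.061 without replicate 1) and ptc2|meu10. The last read -0.36 after loess, -0.39 in the deposited values, -0.12 with mode centring, -0.31 after loess and GC correction, -0.092 with the filter on background, -0.0025 with poor spots kept, -0.089 to 0.063 over the arrays left out (lowest without replicate 2) and -0.044 at 100 bp or more. Depth limits regions under 300 bp, of which 9 of 425 had enough probes to be tested.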
